A study of Rattus norvegicus with 12 samples.

Results

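The genes described here are those that the transcription factor ATF4 is known to switch on when amino acids run short or translation is held back, with ATF4 itself, its partner factors and 12 cytosolic tRNA synthetases. They were measured in organotypic cultures of REK cells, a rat epidermal keratinocyte cell line that forms a stratified, cornified epidermis at the air-liquid interface. A list of 40 genes was matched to the gene names of the array, ignoring case and the suffixes of predicted genes. 37 of the 40 were found among 21405 gene names, and 36 of these passed the detection filter among 10937 genes tested: 17 regulators and effectors, 7 amino acid transporters and 12 tRNA synthetases. Slc7a3, a transporter of cationic amino acids, was not detected on any of the 12 arrays. Sesn2, Aldh18a1 and Ppp1r15a stand in the table under other names (LOC502988, Pycs_predicted and Myd116), so the name rule did not take them, and they are given apart.

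There were 4 groups of 3 cultures, A, B and C, all of the same line and all without feeder cells. The control was mock-irradiated and had no betaine. The betaine group had 10 mM betaine (trimethylglycine, an osmolyte and methyl donor) for 11 days from day 4. The UVB group received 30 mJ/cm2 of UVB at 2 weeks of age, 24 h before collection, without betaine, and the fourth group had both treatments. All 12 samples come from 1 cell line. Nothing in the labels tells whether cultures A, B and C were grown independently, and a p-value here therefore covers the variation among these cultures and no other source.

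Each culture gave one array of 22523 probes, on which 10369 to 10768 probes were detected. Each array's median correlation with the other arrays lay between 0.987 and 0.993, and no array stood apart. Krt14, Krt10, Krt1, Dsp, Cdh1 and Perp, which mark epidermal keratinocytes, were detected on all 12 arrays, and Krt5 and Trp63 had no probe under these names. Of 13 measured markers of other cell types, 8 were detected on no array, among them the fibroblast genes Col1a1, Col1a2, Pdgfra, Lum and Dcn. The leukocyte genes Cd68 and Cd3e and the melanocyte genes Mlana and Pmel were detected on all 12 arrays, with group means on the log2 scale of 6.64 to 6.98, 5.78 to 5.92, 6.02 to 6.37 and 7.43 to 7.75, and the muscle gene Des on 1. The summed linear intensity of the 13 markers was 678.7 to 753 in control cultures, 681.5 to 743.2 with betaine, 709.8 to 768 after UVB and 714.8 to 735.4 with both. In these whole cultures a lower signal from fewer cells of a layer and from less RNA per cell cannot be told apart.

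In background, the integrated stress response begins when a kinase phosphorylates the translation factor eIF2: GCN2 senses uncharged tRNA, PERK unfolded protein in the endoplasmic reticulum, PKR double-stranded RNA and HRI lack of haem. Translation then falls in general, while the Atf4 message is translated more, so the level of Atf4 mRNA need not follow the level of the protein. ATF4 pairs with C/EBP proteins on a composite DNA element and turns on genes that import, make and charge amino acids. Ultraviolet light is known to activate GCN2 in cultured mouse cells. The arrays measure mRNA, and no protein or phosphorylation was measured in the data used here.

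The element ATF4 shares with C/EBP proteins was searched for in the promoters of these genes as TGATGNAA on both strands, where N is any base; this is the letters of the element only, and it overlaps no other motif searched here. RefSeq sequences of 300 bases (250 before the annotated start of the gene and 50 after it, rat build GRCr8) were used for 31 of the 37 genes. The letters were found in 13 of the 31 (41.9%), against 1331 of 33468 promoters of this length (3.98%) and 169 of 7676 promoters of genes tested (2.2%). Among the tRNA synthetases 6 of 10 promoters held them, among the regulators and effectors 5 of 15, and among the transporters 2 of 6. The genes were chosen around ATF4, many as its known targets. A share above that of all promoters therefore describes the choice and tests nothing. The matches are shown here with 10 bases on each side, or fewer at the end of the stretch, for genes that passed a test below, on the gene's own strand from 5′ to 3′, with the motif in capitals. A match on the other strand reads as TTNCATCA.
Chac1: ttctccgccgTTGCATCActcctgctag
Pck2: gccttcaaagTTACATCAgtatccttgc
Trib3: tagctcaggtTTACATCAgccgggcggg
Nupr1: aaaggccagaTTGCATCAgacagggctt
Slc7a1: ggcgcgcggcTGATGAAAccggctcgga
Cars: ggcgccgcggTTGCATCAgattctggaa
Iars: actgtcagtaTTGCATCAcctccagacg
Mars: cccgttccggTTGCATCAgcgtgggctc
Nars: ctaggtgatcTGATGCAAcgcttcagtc
Tars: tggcgtcccgTTGCATCAgctggttagc
Yars: cgagctcagcTGATGCAAcctg

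Of the 13 matches, 1 in each of 13 promoters, 10 had the letters TGATGCAA on the motif's strand, 2 had TGATGTAA (Pck2 and Trib3) and 1 had TGATGAAA (Slc7a1). In these synthetases the matches lay close to the start of the gene. Counting the annotated first base as 0, the first base of the match was at -24 in Iars (chr17:15193659-15193686), -17 in Mars (chr7:65023753-65023780), -14 in Nars (chr18:60275779-60275806) and -27 in Tars (chr2:62114812-62114839). It was at 17 in Cars (chr1:208225335-208225362) and 38 in Yars (chr5:146820191-146820212), which is inside the transcript. Among the effectors it stood at -167 in Chac1 (chr3:126795954-126795981), -239 in Pck2 (chr15:32997604-32997631), -21 in Trib3 (chr3:161275537-161275564) and -55 in Nupr1 (chr1:190645939-190645966), and in the transporter Slc7a1 at -30 (chr12:11664448-11664475). Pycr1 and Slc1a4 also held the letters. Of 19 genes with a promoter that rose after UVB averaged over betaine states (below), 10 held them, and of the 12 that did not pass, 3 did. Atf5, Asns, Vldlr, Adm2 and Slc7a5 were among the genes that rose without a match. The same search found none in the promoters of 9 further cytosolic synthetases and their scaffold proteins or of 16 mitochondrial synthetases, and 5 among 26 other genes known as ATF4 targets, Fgf21, Got1, Jdp2, Slc38a1 and Herpud1. The letters also stood in 2 of 12 promoters of suprabasal and cornified genes (16.7%), against 19.2% of these ATF4 targets, and in 2 of 17 promoters of genes for eIF2 kinases, phosphatase subunits and the exchange factor (11.8%). A match is a description of letters in this window and shows no binding.

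**Figure D1:**
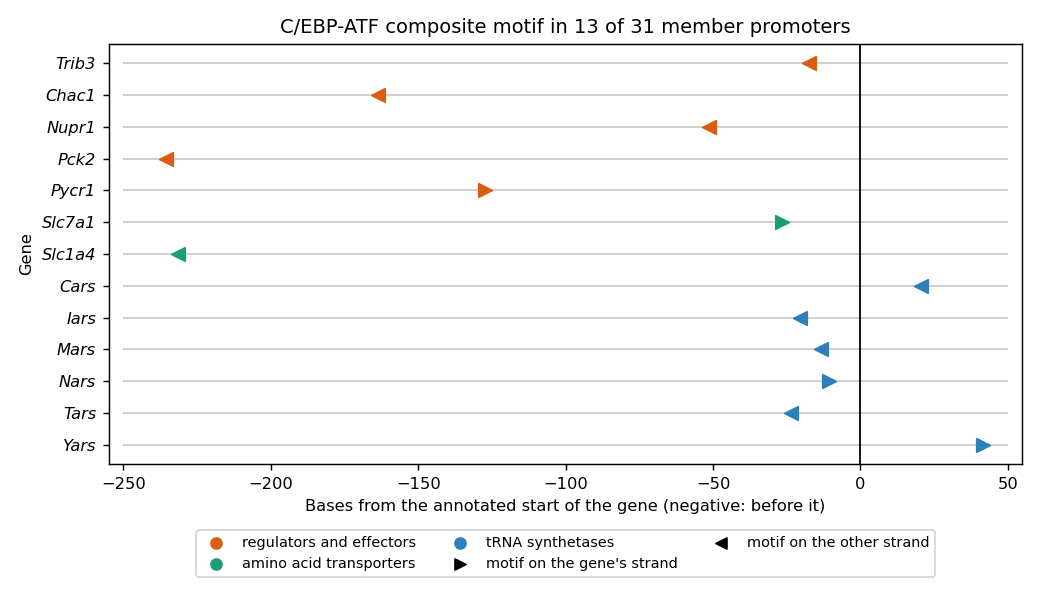
Position of the C/EBP-ATF composite motif in the 13 promoters that hold it, in bases from the annotated start of the gene (0, vertical line), with 1 gene a row; arrowheads point right for a match on the gene's strand and left for the other strand, and colours give the subgroup. The synthetase matches lie from -27 to 38.

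The first question was how these genes stood 24 h after UVB in cultures grown without betaine. Compared with the control, 14 of the 36 genes were higher and 0 were lower (limma, adjusted p under 0.05 over all 10937 genes), which is 38.9% of them, where 2.97% of all genes were higher and 1.98% lower. Those that rose were 8 regulators and effectors (Vldlr, Pck2, Chac1, Adm2, Asns, Eif4ebp1, Trib3 and Atf5), 3 transporters (Slc1a5, Slc7a5 and Slc7a1) and 3 synthetases (Wars, Iars and Lars). The log2 difference was positive in 33 of the 36, with a median of 0.32, against 46.2% positive and a median of -0.02 over all genes. The 36 genes were chosen with earlier results of these arrays known, so these shares describe the list.

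The same irradiation was also compared in cultures grown with betaine, that is betaine + UVB against betaine, a comparison that shares no array with the one above. There 22 of the 36 rose and 0 fell (61.1%), where 3.87% of all genes were higher and 2.28% lower, and the median log2 difference was 0.51. 13 genes rose in both comparisons, which is 92.9% of the 14 and 59.1% of the 22. The share of all genes that rose in both was not counted, so this overlap has no background beside it. Although they share no array, both comparisons came from the same normalization and the same fit, which gives each gene a common spread. The overlap of calls is therefore not an independent repeat. Wars passed only the test without betaine, and Aars, Atf4, Cars, Eprs, Mars, Nars, Slc3a2, Tars and Yars only the test with it; the interaction, given below, was called for none of them. The sign was the same in both comparisons for 32 of 36 genes (88.9%), and for 61.6% of all genes. Averaged over both betaine states, 23 of 36 were higher after UVB and 0 lower (63.9%, median 0.39), where 6.08% of all genes were higher and 5.16% lower.

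**Figure D2:**
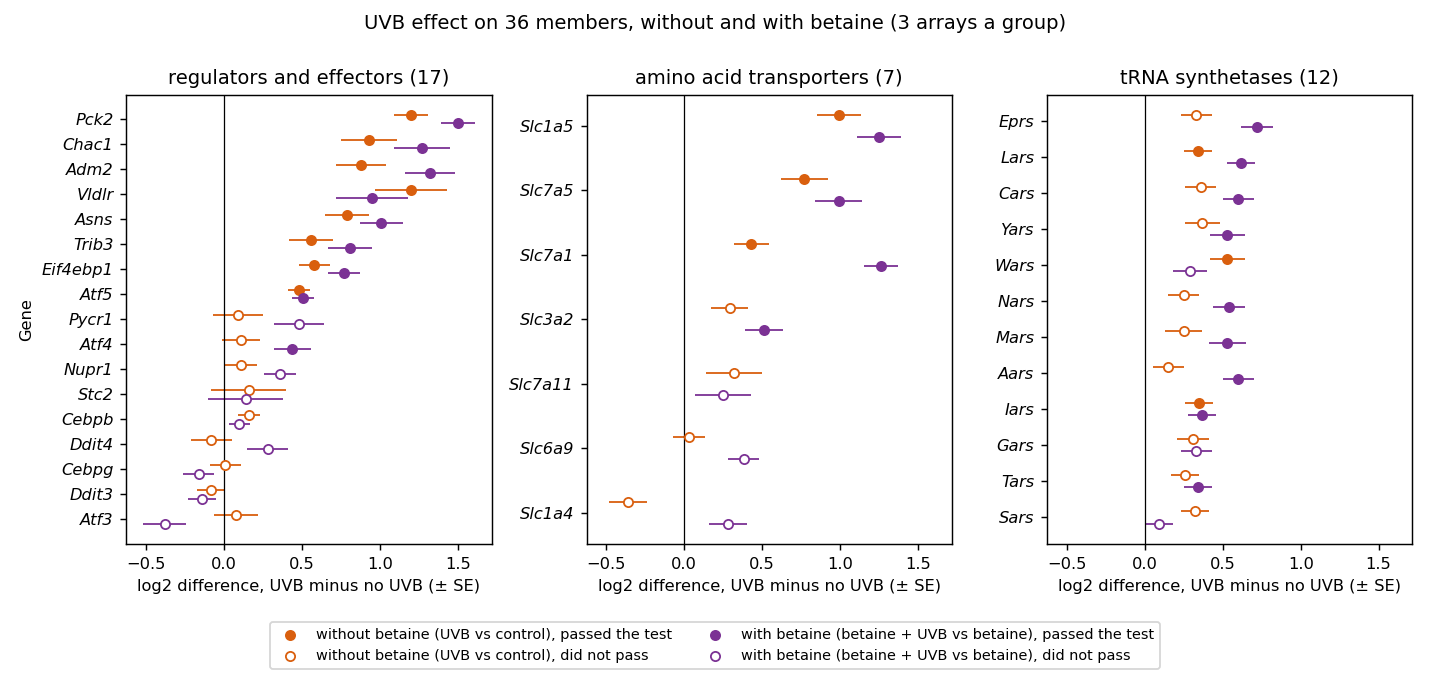
Log2 difference (± SE) between irradiated and unirradiated cultures for the 36 genes tested, without betaine (orange) and with betaine (purple), 3 arrays a group; filled points passed the test (adjusted p under 0.05), Adm2, Atf3, Pycr1 and Slc7a11 are drawn at measured differences although 1 group of each did not detect them, and genes are ordered within a subgroup by the average of both. All 12 synthetases lie to the right of 0 in both comparisons, while the transcription factor genes Atf3, Ddit3 and Cebpg stand near 0 or below it.

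Among the regulators, the message of Atf4 itself changed little. On the log2 scale of normalized intensity, with cultures A, B and C in that order here and below, Atf4 read 12.23, 12.14 and 12.19 in control cultures, 11.82, 11.77 and 12.23 with betaine, 12.18, 12.27 and 12.44 after UVB, and 12.39, 12.33 and 12.41 with both. Irradiated and control arrays overlapped, while all betaine + UVB arrays lay above all betaine arrays. The difference was 0.11 ± 0.12, adjusted p = 0.715 without betaine, and 0.44 ± 0.12 with betaine (adjusted p = 0.0485), where betaine C stood apart at 12.23 against 11.82 and 11.77. Averaged over betaine states it was 0.27 ± 0.08 (adjusted p = 0.0556). The call with betaine was lost in 10 of the 12 fits that left out an array, with no detection filter and in a fit of the compared groups alone.

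Atf5, a related factor whose message is also translated more when eIF2 is phosphorylated, read 10.05, 9.97 and 10.1 in control cultures, 10.02, 10.05 and 10.06 with betaine, 10.52, 10.58 and 10.48 after UVB, and 10.5, 10.55 and 10.61 with both. Every irradiated array lay above every unirradiated one, and the values with and without betaine lay side by side. It rose by 0.48 ± 0.07 (1.4-fold, adjusted p = 0.00238) without betaine and by 0.51 ± 0.07 (adjusted p = 0.00109) with it. Its betaine difference was 0.00 ± 0.07 in unirradiated cultures.

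Ddit3, which encodes the proapoptotic factor CHOP and is a common marker of the response, read 11.03, 10.79 and 10.94 in control cultures, 11.05, 10.95 and 10.91 with betaine, 10.83, 10.82 and 10.85 after UVB, and 10.83, 10.9 and 10.74 with both. The arrays of both irradiated groups lay below the betaine arrays, the other groups overlapped, and no difference passed the test (-0.08 ± 0.09, adjusted p = 0.693 without betaine, -0.14 ± 0.09, adjusted p = 0.393 with it). Atf3, a stress-induced repressor, was detected on 6 of 12 arrays and on none of the betaine + UVB arrays. It read 5.52, 5.68 and 5.95 in control cultures, 5.72, 5.91 and 5.62 with betaine, 5.81, 6 and 5.58 after UVB, and 5.5, 5.21 and 5.4 with both. No Atf3 difference passed. Of the 3 arrays with UVB alone 2 detected it, so its difference from betaine + UVB has no size here (limma, adjusted p = 0.176, measured means 5.79 and 5.37). The C/EBP partners gave 0.16 ± 0.07, adjusted p = 0.284 for Cebpb and 0.01 ± 0.10, adjusted p = 0.962 for Cebpg, Ddit4, an inhibitor of the growth kinase mTORC1, gave -0.08 ± 0.13, adjusted p = 0.818, and Stc2, a secreted glycoprotein, 0.16 ± 0.24, adjusted p = 0.799, all for UVB against control.

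The largest rises were in effector genes. Pck2, the mitochondrial phosphoenolpyruvate carboxykinase, read 7.93, 7.76 and 7.89 in control cultures, 7.29, 7.13 and 7.19 with betaine, 8.9, 8.95 and 9.32 after UVB, and 8.8, 8.64 and 8.69 with both. The 4 groups did not overlap: betaine arrays were lowest, then control, then betaine + UVB, then UVB. Without betaine Pck2 rose 2.29-fold (1.20 ± 0.11, adjusted p = 0.000101), and with betaine 2.84-fold (1.50 ± 0.11, adjusted p = 1.58e-05).

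Chac1, an enzyme that breaks down glutathione, read 6.56, 7.31 and 7.23 in control cultures, 6.39, 6.5 and 6.27 with betaine, 8.06, 7.89 and 7.95 after UVB, and 7.87, 7.66 and 7.44 with both. All UVB arrays were above all control arrays, where control A was low, and all betaine + UVB arrays were above all betaine arrays. It rose 1.91-fold without betaine (0.93 ± 0.18, adjusted p = 0.00937) and 2.41-fold with it (1.27 ± 0.18, adjusted p = 0.000769). Asns, which makes asparagine from aspartate and glutamine, read 9.65, 9.67 and 9.67 in control cultures, 9.14, 8.72 and 9.41 with betaine, 10.46, 10.48 and 10.42 after UVB, and 10.16, 10.07 and 10.07 with both. Its control values had an SD of 0.01 and the irradiated groups lay above them, while betaine cultures lay below and varied most. Asns rose 1.73-fold (0.79 ± 0.14, adjusted p = 0.00497) without betaine and 2.01-fold (1.01 ± 0.14, adjusted p = 0.000615) with it.

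Adm2, a peptide hormone of the calcitonin family, was dim and read 6.53, 6.08 and 6.53 in control cultures, 5.31, 5.26 and 5.43 with betaine, 6.98, 7.45 and 7.33 after UVB, and 6.88, 6.7 and 6.37 with both. It was detected on all arrays of the other groups and on none of the betaine arrays, so comparisons with these give a bound. Without betaine it rose 1.84-fold after UVB (0.88 ± 0.16, adjusted p = 0.00912), and with betaine it was at least 2.07-fold higher after UVB (adjusted p = 0.00038; measured means 6.65 and 5.33). The bound takes the lowest signal among detected probes on each array in place of a lower reading. Vldlr, a lipoprotein receptor, read 6.56, 7.16 and 7.18 in control cultures, 6.38, 6.46 and 7.18 with betaine, 8.21, 8.34 and 7.96 after UVB, and 7.83, 7.7 and 7.36 with both. UVB arrays lay above control arrays without overlap, and betaine C stood above the other betaine arrays. Its rise was 1.20 ± 0.23, adjusted p = 0.00922 without betaine and 0.95 ± 0.23, adjusted p = 0.0271 with it.

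Trib3, a pseudokinase that binds ATF4 and limits its activity, read 7.92, 8.23 and 8.15 in control cultures, 7.27, 7.6 and 7.73 with betaine, 8.57, 8.67 and 8.73 after UVB, and 8.52, 8.36 and 8.14 with both. No array of an irradiated group fell within the unirradiated group it was compared with. It rose by 0.56 ± 0.14, adjusted p = 0.0375, and by 0.81 ± 0.14, adjusted p = 0.00322 with betaine. Eif4ebp1, which encodes a repressor of cap-dependent translation, read 11.57, 11.38 and 11.63 in control cultures, 11.12, 11.12 and 11.31 with betaine, 12, 12.06 and 12.26 after UVB, and 12.01, 11.95 and 11.89 with both. Every irradiated array stood above every unirradiated one, and it rose 1.5-fold (0.58 ± 0.10, adjusted p = 0.00535) and 1.7-fold (0.77 ± 0.10, adjusted p = 0.000506). Nupr1, a small stress-induced chromatin protein, differed by 0.11 ± 0.10, adjusted p = 0.647 without betaine and 0.36 ± 0.10, adjusted p = 0.0579 with it, with the betaine arrays below the others. Pycr1, the last enzyme of proline synthesis, was detected on 4 of 12 arrays and on none of the betaine arrays. It gave 0.09 ± 0.16, adjusted p = 0.832 without betaine. Of the 3 betaine + UVB arrays 2 detected it, so its difference from betaine has no size here. That difference did not pass (limma, adjusted p = 0.107, measured means 5.69 and 5.2).

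**Figure D3:**
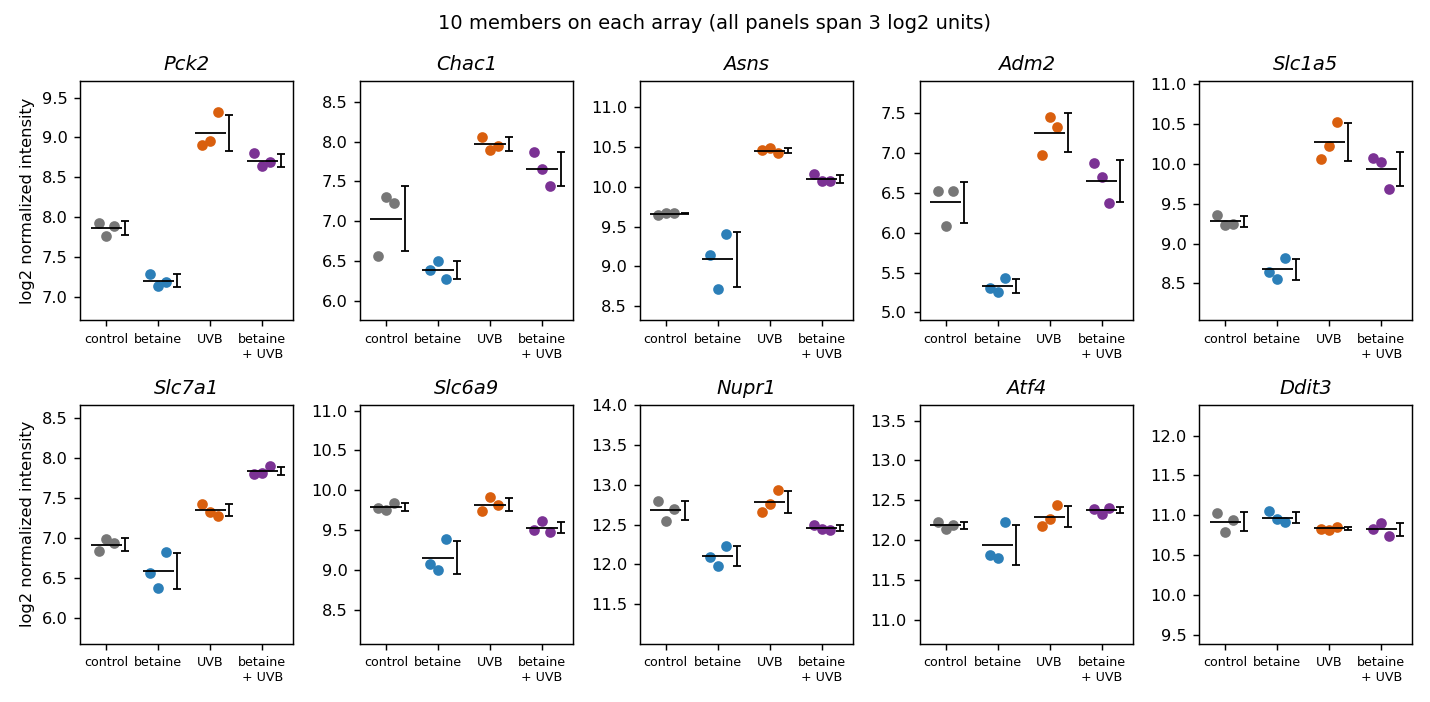
Log2 normalized intensity of 10 of the genes on each of the 12 arrays; points are cultures A, B and C from left to right, horizontal lines are group means and vertical bars ± 1 SD, and all panels span 3 log2 units. By group means Pck2, Chac1, Asns, Adm2 and Slc1a5 are higher in both irradiated groups and lowest with betaine alone, whereas Atf4 and Ddit3 stay within a narrow range. The betaine + UVB arrays of Adm2 overlap the control arrays.

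The transporters that bring in amino acids gave 3 rises of 7 without betaine (42.9%) and 4 of 7 with it (57.1%). Of all genes 2.97% and 3.87% were higher. Slc1a5, the main glutamine importer, read 9.36, 9.23 and 9.25 in control cultures, 8.65, 8.56 and 8.82 with betaine, 10.06, 10.23 and 10.53 after UVB, and 10.08, 10.03 and 9.69 with both. Irradiated and unirradiated arrays did not overlap, and betaine arrays lay below control. It rose 1.98-fold (0.99 ± 0.14, adjusted p = 0.00114) and, with betaine, 2.38-fold (1.25 ± 0.14, adjusted p = 0.000135).

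Slc7a5 and Slc3a2 encode the light and heavy chain of the leucine transporter LAT1. Slc7a5 read 9.93, 9.7 and 10.02 in control cultures, 9.59, 9.23 and 9.9 with betaine, 10.59, 10.69 and 10.67 after UVB, and 10.69, 10.41 and 10.58 with both. The irradiated arrays stood above the unirradiated ones in both states, and it rose by 0.77 ± 0.15, adjusted p = 0.0123 without betaine and 0.99 ± 0.15, adjusted p = 0.00164 with it. Slc3a2 read 12.43, 11.94 and 12.3 in control cultures, 12.05, 11.94 and 12.22 with betaine, 12.44, 12.56 and 12.54 after UVB, and 12.53, 12.69 and 12.53 with both. Control B was low, and the difference without betaine did not pass (0.29 ± 0.12, adjusted p = 0.253), while that with betaine did (0.51 ± 0.12, adjusted p = 0.0308).

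Slc7a1, the importer of arginine and lysine, had a different order of the groups. It read 6.83, 6.99 and 6.93 in control cultures, 6.56, 6.37 and 6.82 with betaine, 7.43, 7.33 and 7.28 after UVB, and 7.8, 7.82 and 7.9 with both. The betaine + UVB arrays were the highest of the 4 groups and the betaine arrays the lowest, with no overlap between any groups. UVB gave 0.43 ± 0.11, adjusted p = 0.043 without betaine and 1.26 ± 0.11, adjusted p = 2.57e-05 (2.39-fold) with it. Of the others, Slc7a11, the cystine importer, was detected on 4 of 12 arrays and on no control array, so its difference after UVB without betaine has no size here (adjusted p = 0.405; measured means 5.58 and 5.26). Slc1a4, an importer of neutral amino acids, gave -0.36 ± 0.12, adjusted p = 0.135 without betaine and 0.28 ± 0.12, adjusted p = 0.222 with it, and Slc6a9, a glycine importer, 0.03 ± 0.10, adjusted p = 0.916 and 0.38 ± 0.10, adjusted p = 0.0549.

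The 12 tRNA synthetases, which attach amino acids to their tRNAs, gave small positive differences after UVB on the probes used. After UVB 3 of 12 rose without betaine (25%), 9 of 12 with betaine (75%) and 11 of 12 averaged over both (91.7%), where 2.97%, 3.87% and 6.08% of all genes were higher. The median difference was 0.32, 0.53 and 0.39, and it was positive for 12 of 12 in each. By gene the average ran from 0.20 ± 0.06 for Sars (adjusted p = 0.07), which did not pass, to 0.52 ± 0.07 (1.44-fold, adjusted p = 0.000442) for Eprs, which charges both glutamate and proline tRNAs.

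Eprs read 9.83, 10.07 and 9.72 in control cultures, 9.45, 9.45 and 9.64 with betaine, 10.27, 10.14 and 10.18 after UVB, and 10.23, 10.16 and 10.3 with both. Irradiated arrays lay above unirradiated ones, and the betaine arrays were the lowest. It gave 0.33 ± 0.10, adjusted p = 0.102 without betaine and 0.72 ± 0.10, adjusted p = 0.000899 with it. Lars, the leucine enzyme, read 11.53, 11.32 and 11.37 in control cultures, 11.07, 10.95 and 11.17 with betaine, 11.71, 11.76 and 11.76 after UVB, and 11.74, 11.62 and 11.71 with both. Its groups were ordered in the same way, and it rose by 0.34 ± 0.09, adjusted p = 0.046 and 0.62 ± 0.09, adjusted p = 0.000755. The cysteine enzyme Cars read 9.62, 9.85 and 9.95 in control cultures, 9.33, 9.29 and 9.51 with betaine, 10.27, 10.13 and 10.13 after UVB, and 10.07, 9.89 and 9.97 with both. Its UVB arrays stood above control (0.36 ± 0.10, adjusted p = 0.071), and it rose with betaine present (0.60 ± 0.10, adjusted p = 0.00395).

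Wars, the tryptophan enzyme, which interferon gamma also induces in human cells, read 8.2, 8.07 and 8.43 in control cultures, 8.37, 8.29 and 8.32 with betaine, 8.62, 8.9 and 8.75 after UVB, and 8.68, 8.64 and 8.52 with both. UVB B was the highest array, and betaine arrays lay among the controls. It rose 1.44-fold without betaine (0.53 ± 0.11, adjusted p = 0.0128), and with betaine gave 0.29 ± 0.11, adjusted p = 0.143. Iars, the isoleucine enzyme, read 9.72, 9.66 and 9.72 in control cultures, 9.52, 9.63 and 9.63 with betaine, 10.11, 10.15 and 9.89 after UVB, and 10.05, 9.96 and 9.89 with both. Irradiated and unirradiated arrays did not overlap, and it rose by 0.35 ± 0.09, adjusted p = 0.0445 and 0.37 ± 0.09, adjusted p = 0.026. The tyrosine enzyme Yars read 11.22, 10.89 and 11.3 in control cultures, 10.91, 10.79 and 10.93 with betaine, 11.47, 11.52 and 11.53 after UVB, and 11.51, 11.44 and 11.25 with both. Control B was low, and the difference was 0.37 ± 0.11, adjusted p = 0.09 without betaine and 0.53 ± 0.11, adjusted p = 0.0148 with it.

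Nars, the asparagine enzyme, read 12.53, 12.28 and 12.55 in control cultures, 12.23, 12.07 and 12.17 with betaine, 12.65, 12.78 and 12.69 after UVB, and 12.68, 12.83 and 12.58 with both. The methionine enzyme Mars read 12.62, 12.35 and 12.66 in control cultures, 12.25, 12.07 and 12.53 with betaine, 12.79, 12.85 and 12.75 after UVB, and 12.87, 12.8 and 12.78 with both, and the alanine enzyme Aars read 12.45, 12.3 and 12.55 in control cultures, 12.15, 11.89 and 12.17 with betaine, 12.56, 12.69 and 12.51 after UVB, and 12.74, 12.63 and 12.62 with both. In all of these the betaine + UVB arrays lay above the betaine arrays without overlap, and control B was the lowest control. With betaine Nars rose by 0.54 ± 0.10, adjusted p = 0.00586. Mars rose by 0.53 ± 0.12, adjusted p = 0.0185 and Aars by 0.60 ± 0.10, adjusted p = 0.00367. Without betaine the differences were 0.25 ± 0.10 for Nars, 0.25 ± 0.12 for Mars and 0.15 ± 0.10 for Aars (adjusted p = 0.202, 0.297 and 0.506).

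Gars, the glycine enzyme, read 12.08, 12.35 and 12.35 in control cultures, 12.09, 12 and 11.96 with betaine, 12.52, 12.65 and 12.54 after UVB, and 12.46, 12.34 and 12.23 with both. The threonine enzyme Tars read 11.4, 11.43 and 11.56 in control cultures, 11.2, 11.25 and 11.3 with betaine, 11.74, 11.76 and 11.67 after UVB, and 11.68, 11.65 and 11.44 with both on its brighter probe. Both passed when averaged over betaine states, Gars by 0.32 ± 0.07, adjusted p = 0.00989 and Tars by 0.30 ± 0.06, adjusted p = 0.00718. With betaine Tars passed at 0.34 ± 0.09 (adjusted p = 0.0401). A second, dimmer Tars probe gave 0.22 ± 0.10 for the average (adjusted p = 0.193), 0.49 ± 0.14 with betaine (adjusted p = 0.0667) and -0.04 ± 0.14 without it (adjusted p = 0.925), where the brighter probe gave 0.26 ± 0.09, so the probes of Tars differ on the calls and, without betaine, in sign. Sars, the serine enzyme, gave 0.32 ± 0.09, adjusted p = 0.0756 without betaine and 0.09 ± 0.09, adjusted p = 0.666 with it.

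**Figure D4:**
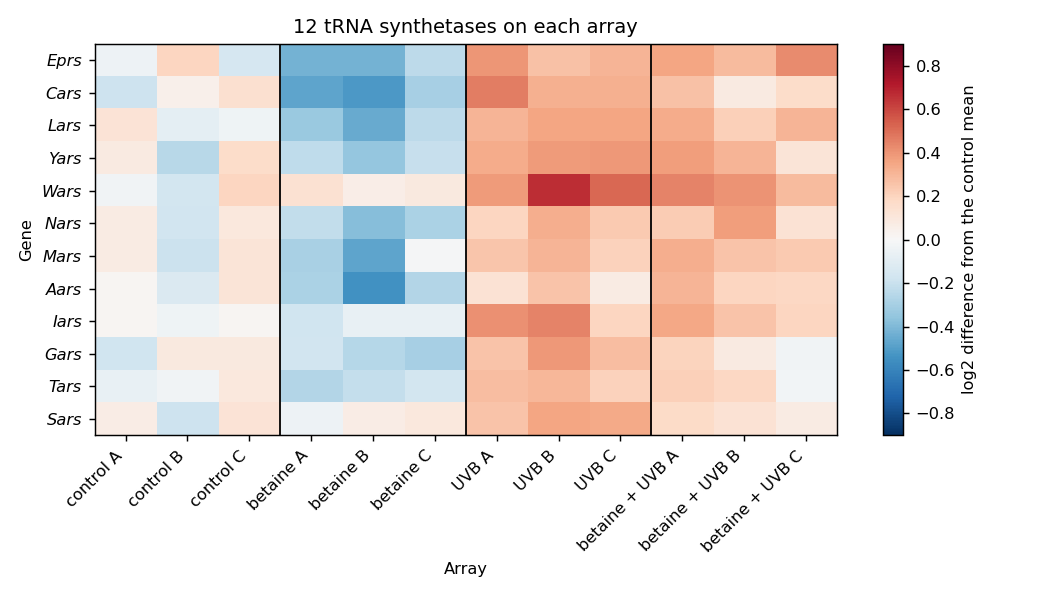
Log2 difference of each of the 12 tRNA synthetases from its mean in control cultures, on each of the 12 arrays (columns, grouped by treatment), with genes ordered by their average UVB difference; red is higher and blue lower. The irradiated arrays are red for nearly every gene, and the betaine arrays are blue for most genes other than Wars and Sars.

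How far the pattern reached was read from gene lists around it. Of 7 tested cytosolic synthetases and scaffold proteins that are not among the 12, 0 passed in either pairwise UVB comparison by limma (2 at an unadjusted p under 0.05 in each), with a median of 0.11 without betaine. Averaged over betaine states, 1 of 7 rose (14.3%, where 6.08% of all genes did), Farsb, a subunit of the phenylalanine enzyme (0.26 ± 0.06, adjusted p = 0.0149). Of 12 genes with names of mitochondrial synthetases 1 rose in the average, Vars2, a valine enzyme (0.36 ± 0.10, adjusted p = 0.0341). That is 8.33%, near the 6.08% of all genes, and the median without betaine was 0.01. These were matched by name only, and whether an older name stood for a cytosolic enzyme was not checked. Among 20 other known ATF4 targets, 6 rose without betaine (30%), 5 with it (25%) and 8 in the average (40%), and 0 fell. Of all genes 2.97%, 3.87% and 6.08% were higher in these comparisons. The enzymes that make serine and one-carbon units gave Psph (0.78 ± 0.13 without betaine and 1.10 ± 0.13 with it), Shmt2 (0.61 ± 0.15 and 0.64 ± 0.15), Phgdh (0.49 ± 0.11 and 0.61 ± 0.11) and Mthfd1l (0.39 ± 0.10 and 0.81 ± 0.10). Tubb6, a beta-tubulin (0.74 ± 0.12 and 0.81 ± 0.12), and, without betaine, Cth, which makes cysteine (0.68 ± 0.13, adjusted p = 0.0106), also rose. Jdp2, a partner factor of the AP-1 family, rose in the average (0.60 ± 0.15, adjusted p = 0.0258).

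Upstream of ATF4 no gene passed as higher. Of 15 tested genes for eIF2 kinases, their regulators, phosphatase subunits and the guanine exchange factor, 0 were higher and 2 lower without betaine (13.3%, where 1.98% of all genes were lower). These were Eif2ak3, the kinase PERK (-0.40 ± 0.09, adjusted p = 0.0215), and Nck1, an adapter protein (-0.44 ± 0.11, adjusted p = 0.0359). With betaine 0 of 15 passed by limma, with -0.18 ± 0.09 for Eif2ak3 (adjusted p = 0.27) and -0.25 ± 0.11 for Nck1 (adjusted p = 0.212). In the average both were lower, Eif2ak3 by -0.29 ± 0.06 (adjusted p = 0.00888) and Nck1 by -0.35 ± 0.07 (adjusted p = 0.0101). Of 14 genes of the XBP1 and ATF6 arms, which raise chaperones of the endoplasmic reticulum, 0 passed in either pairwise UVB comparison by limma (5 and 1 at an unadjusted p under 0.05). In the average 2 of 14 rose (14.3%, where 6.08% of all genes did), Hsp90b1 (0.27 ± 0.06, adjusted p = 0.00795) and Creld2 (0.27 ± 0.07, adjusted p = 0.022). Of the 3 genes that the name rule missed, Aldh18a1, which makes the precursor of proline, rose by 0.69 ± 0.10 without betaine (adjusted p = 0.00189) and 0.98 ± 0.10 with it (adjusted p = 0.000102). Ppp1r15a, the stress-induced subunit of the eIF2 phosphatase, gave 0.01 ± 0.19 (adjusted p = 0.986) and -0.27 ± 0.19 (adjusted p = 0.485), and Sesn2, which senses leucine, was detected on no array.

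Markers of the epidermal layers moved beside these genes. The summed linear intensity of 11 basal-layer genes was 67672 to 72067 after UVB, against 78001 to 86693 in the control. It was 76957 to 81310 with betaine and 75087 to 79017 with both. A linear sum gives most weight to the brightest genes. After UVB without betaine, 1 of these 11 basal-layer genes passed as lower (9.09%, where 1.98% of all genes did), the bright Krt15 (mean 14.18 in control and 13.44 after UVB). The median log2 difference of the 11 was -0.15, and 2 were positive. For 11 suprabasal and cornified genes the sum was 79933 to 92987 in control, 86885 to 93204 with betaine, 89630 to 100153 after UVB and 80762 to 89599 with both. Krt15, a basal keratin, fell after UVB (-0.74 ± 0.14, adjusted p = 0.00926), as did Krt2, a late suprabasal keratin (-1.59 ± 0.32, adjusted p = 0.0142), which was detected on 2 of the 3 UVB arrays. With betaine present, the basal integrin genes Itga3 (0.73 ± 0.19, adjusted p = 0.0401) and Itgb4 (0.46 ± 0.11, adjusted p = 0.0226) rose after UVB. Krt2 was also the layer gene that rose with betaine, 3.93-fold in unirradiated cultures (adjusted p = 0.0192) and 5.34-fold in irradiated ones (adjusted p = 0.006). The part of these layers in the results above was not tested.

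The second question was the effect of betaine. In unirradiated cultures 0 of the 36 genes were higher with betaine and 4 were lower (11.1%), where 0.366% of all genes were higher and 0.53% lower. The 4 were Adm2, Pck2, Nupr1 and Slc6a9. The log2 difference was positive in 8 of 36, with a median of -0.28, while the median of all genes was 0.00. This comparison uses the same control arrays as UVB against control and the same betaine arrays as betaine + UVB against betaine, so a low betaine array lowers the one and raises the other.

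Adm2 was at least 1.71-fold lower with betaine than in control (adjusted p = 0.0178; measured means 5.33 and 6.38). Pck2 fell 1.58-fold (-0.66 ± 0.11, adjusted p = 0.0222), with all betaine arrays below all control arrays. Slc6a9 read 9.78, 9.75 and 9.84 in control cultures, 9.07, 9 and 9.39 with betaine, 9.74, 9.91 and 9.81 after UVB, and 9.5, 9.61 and 9.48 with both. It fell 1.55-fold (-0.63 ± 0.10, adjusted p = 0.0202), and betaine C was the highest betaine array. Nupr1 read 12.79, 12.55 and 12.69 in control cultures, 12.09, 11.98 and 12.23 with betaine, 12.66, 12.76 and 12.93 after UVB, and 12.5, 12.44 and 12.43 with both. Its betaine arrays lay below all other arrays, and it fell 1.49-fold (-0.57 ± 0.10, adjusted p = 0.0236). The synthetases gave 0 calls (limma; 9 at an unadjusted p under 0.05) and a median of -0.26, from -0.43 ± 0.10 for Cars to 0.09 ± 0.11 for Wars.

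The calls of Adm2, Pck2, Nupr1 and Slc6a9 were all lost in the fit of the compared groups alone (adjusted p = 0.0908, 0.117, 0.179 and 0.186) and when control A, control C, betaine A or betaine B was left out, and that of Pck2 also without betaine C. In these fits without 1 array Pck2 lay between -0.62 and -0.70, Nupr1 between -0.52 and -0.57 and Slc6a9 between -0.55 and -0.64. In the authors' deposited processed values Adm2 and Pck2 were not called (-0.22, adjusted p = 0.0906, and -0.28, adjusted p = 0.114), while Nupr1 (-0.62, adjusted p = 0.00866) and Slc6a9 (-0.47, adjusted p = 0.0131) were.

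In irradiated cultures, betaine + UVB against UVB, 0 of 36 genes passed the test by limma, where 0.494% of all genes were higher and 0.393% lower; 11 had an unadjusted p under 0.05 and 6 passed with array weights. The median difference was -0.11. Pck2 gave -0.35 ± 0.11, adjusted p = 0.168, Adm2 -0.60 ± 0.16, adjusted p = 0.119, Asns -0.35 ± 0.14, adjusted p = 0.227 and Nupr1 -0.33 ± 0.10, adjusted p = 0.148. Slc7a1 went the other way, at 0.49 ± 0.11, adjusted p = 0.0607, and passed in the fit with array weights (adjusted p = 0.0079) and the fit of the compared groups alone (adjusted p = 0.0274). The sign of the betaine difference was the same without and with UVB for 21 of 36 genes (58.3%), and for 58.9% of all genes. None of the 36 was called lower in both states. Among the transporters 1 of 7 differences was positive without UVB (median -0.33) and 4 of 7 with it (median 0.07). Averaged over UVB states, 0 of 36 were higher with betaine and 8 lower (22.2%), where 1.66% of all genes were higher and 1.58% lower.

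The 8 were Adm2 (adjusted p = 0.00327, with no size given because the betaine arrays did not detect it), Pck2 (-0.50 ± 0.08, adjusted p = 0.00627), Slc1a5 (-0.47 ± 0.10), Asns (-0.46 ± 0.10), Slc6a9 (-0.46 ± 0.07), Nupr1 (-0.45 ± 0.07), Trib3 (-0.44 ± 0.10) and Cars (-0.31 ± 0.07, adjusted p = 0.0412). Beyond the list, Mthfd1l fell with betaine in unirradiated cultures (-0.61 ± 0.10, adjusted p = 0.0192), and in the average Psph (-0.46 ± 0.09, adjusted p = 0.0235), Mthfd1l (-0.40 ± 0.07, adjusted p = 0.0105) and Qars1, the glutamine enzyme (-0.29 ± 0.07, adjusted p = 0.046), were lower. Aldh18a1 was also lower in the average (-0.33 ± 0.07, adjusted p = 0.0299). Of the 8 calls, that of Cars was lost in 10 of the 12 fits that left out an array, that of Trib3 in 7, that of Asns in 5 and that of Slc1a5 in 3. Over all alternatives Cars stayed between -0.37 and -0.24 and Trib3 between -0.53 and -0.23.

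**Figure D5:**
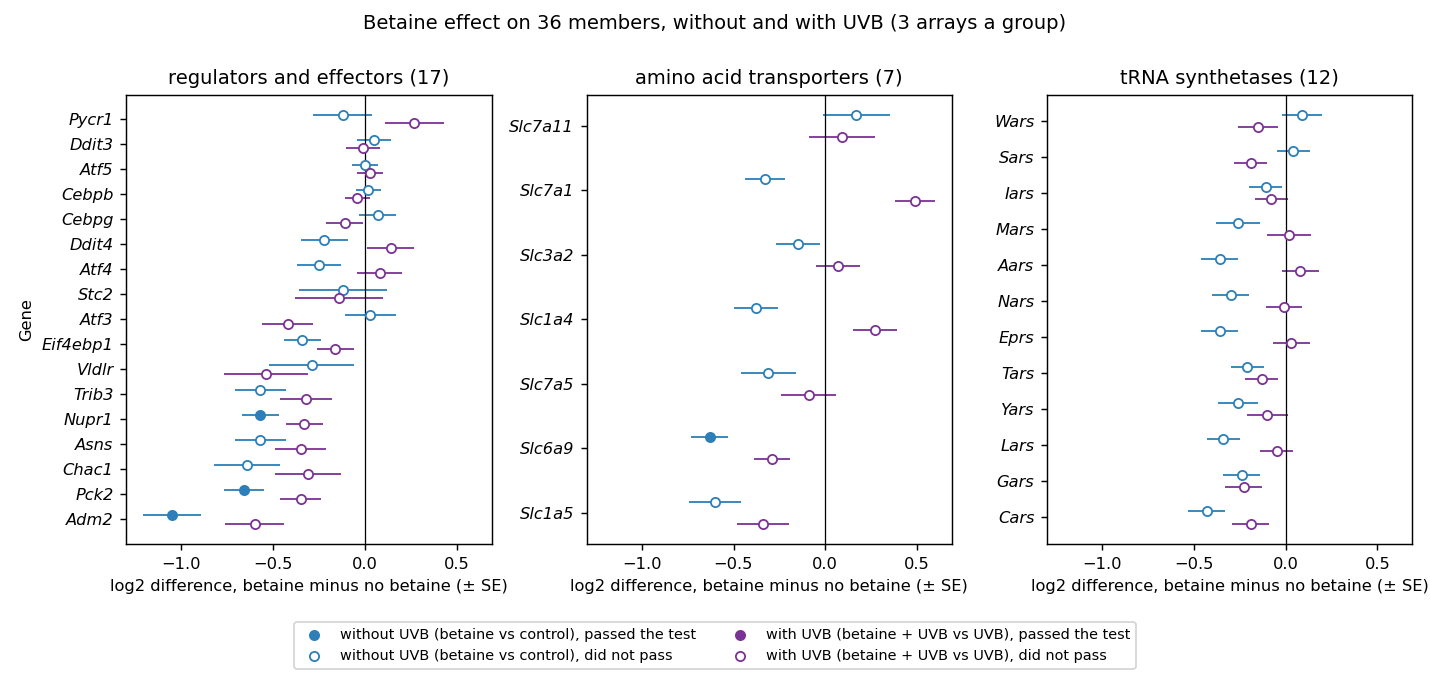
Log2 difference (± SE) between cultures with and without betaine for the 36 genes tested, without UVB (blue) and with UVB (purple). Each group has 3 arrays, and filled points passed the test (adjusted p under 0.05). Adm2, Atf3, Pycr1 and Slc7a11 are drawn at measured differences although 1 group of each did not detect them. Adm2, Pck2, Nupr1 and Slc6a9 passed in unirradiated cultures, and none passed in irradiated cultures. The sign is the same without and with UVB for 21 of the 36 genes (58.3%), and for 58.9% of all genes. Slc7a1 and Slc1a4 are among those that lie on opposite sides of 0.

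Whether the UVB response differed with betaine was tested by the interaction, the UVB difference with betaine minus that without it. By limma 0 of 36 genes and 0% of all 10937 genes passed; 7 of the 36 and 880 of all genes had an unadjusted p under 0.05, and with array weights 1 of the 36 passed. That gene was Slc7a1 (0.83 ± 0.15, adjusted p = 0.429; 0.85 and adjusted p = 0.0382 with array weights). The interaction was positive in 27 of 36 genes with a median of 0.23, against 53.5% positive and a median of 0.02 over all genes. For Pck2 it was 0.31 ± 0.16, adjusted p = 0.649, for Aars 0.44 ± 0.14, adjusted p = 0.574, and for Atf4 0.33 ± 0.17, adjusted p = 0.647. The standard error of an interaction was 0.17 log2 in the median gene, and with it these differences were not called at this number of arrays.

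Of the 14 rises after UVB without betaine, 6 were lost in some fits that left out an array. The calls of Trib3, Slc7a1, Iars and Lars were lost in 7, 10, 10 and 9 of the 12 fits that left out an array, also where the array left out was not in the comparison, and over all alternatives these genes stayed at 0.32 to 0.62, 0.15 to 0.46, 0.21 to 0.43 and 0.20 to 0.40. The call of Slc7a5 was lost without control B (0.67, adjusted p = 0.061). That of Wars was lost without control B (0.45, adjusted p = 0.0547), without UVB B (0.46, adjusted p = 0.0598) and in the fit of the compared groups alone (0.53, adjusted p = 0.0633). Pck2, Chac1, Asns, Adm2, Vldlr, Slc1a5, Eif4ebp1 and Atf5 passed in all 9 other settings and all 12 such fits.

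Of the 22 rises with betaine, that of Tars was lost in 6 of the 12 fits that left out an array, those of Mars, Iars and Slc3a2 in 5 each, namely without betaine A, betaine B or any 1 of the betaine + UVB arrays, that of Vldlr in 4 and that of Yars in 3, beside that of Atf4. Over all alternatives the differences of Tars stayed between 0.29 and 0.41, of Mars between 0.43 and 0.66, of Iars between 0.30 and 0.44, of Slc3a2 between 0.44 and 0.59, of Vldlr between 0.33 and 1.22 and of Yars between 0.47 and 0.61. Vldlr was at its lowest in the authors' deposited processed values (0.33, adjusted p = 0.0386). The other genes called with betaine passed in all 12 fits.

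When arrays were scaled to a common median in place of common quantiles, the median of all genes for UVB against control moved to -0.11. Of the calls 32.1% were higher, against 60% as reported. In that comparison 10 of the 36 genes rose, and the 12 synthetases stayed positive with a median 0.31 above that of all genes. For betaine + UVB against betaine the median of all genes stayed at -0.01, and 64.9% of the calls were higher, against 62.9% as reported. In the authors' deposited processed values, whose normalization is not given in the sources used here, the UVB differences without betaine were smaller for some genes: 0.38 for Chac1, 0.27 for Adm2, 0.52 for Vldlr, 0.15 for Slc7a1, 0.32 for Trib3, 0.31 for Wars and 0.70 for Pck2.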

How the data were processed

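Total RNA (400 ng a culture) from the epidermal layer of 12 REK cultures was labelled with biotin and hybridized to Illumina RatRef-12 arrays, 1 array a culture, per the labels' protocols. The deposited table gives, per the file headers, a non-normalized signal intensity and a detection p-value for each of 22523 probes and 12 arrays. A deposited table of processed values was taken as log2 from its range; its columns share a median of 7.71 and keep the rank order of the intensities. The submitters' processing notes name R 2.11 and limma without a role; the normalization and the exporting software are not given in the sources used here. Slides and scan dates are not given either, so they could not be tested.

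From the intensities, background correction by normexp against the negative controls implied by the detection p-values, quantile normalization and log2 (neqc, offset 16) were run with limma 3.58.1 in R 4.3.3. Probes detected (p under 0.05) on at least 3 of 12 arrays were kept, and the brightest probe of a gene was used. A model of 4 group means over all 12 arrays with empirical Bayes gave 7 comparisons, each adjusted by Benjamini-Hochberg over 10937 genes; ± is the standard error of a log2 difference, from 3 arrays a group. The number of arrays limits the precision: the median standard error of a pairwise log2 difference was 0.12. Old gene names were brought to RefSeq symbols through symbol (10291), gene ID (1642) or synonym (4978), and 5495 were kept; 117 probes had no name. Promoter sequences are RefSeq's, build GRCr8; 1 further promoter is not reported here and was left out of the search. The test was tried on simulated arrays.

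The genes and lists were chosen with earlier results of these data known. Values on every array are given for each gene of the list called in any comparison and for Atf4, Ddit3 and Atf3; genes of the other lists are named only where called, up to 6 a list and comparison by size. Alternatives were no background correction, median scaling, the authors' processed values, no detection filter, detection on at least 6 arrays, the mean of probes, array weights, only the groups compared, the culture letter as a block, and each array left out.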

Additional observations from a re-analysis of the deposited data

Results flagged for a closer look

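In 2 of the 36 genes tested, both transporters, every betaine array moved one way without UVB and the opposite way with UVB. How many of all genes do so was not counted, so this count has no share over all genes beside it. For Slc7a1 the betaine difference was -0.33 without UVB and 0.49 with it. The difference between them was tested as the interaction, 0.83 ± 0.15, with an adjusted p = 0.429 over all genes by limma. Over 20 alternatives the interaction of Slc7a1 stayed between 0.30 and 0.95 with adjusted p from 0.0382 to 0.972. For Slc1a4 the betaine difference was -0.38 without UVB and 0.27 with it, and the interaction was 0.64 ± 0.17 (limma, adjusted p = 0.574), from 0.20 to 0.75 over 20 alternatives with adjusted p from 0.205 to 0.972. Neither passed the adjustment as reported.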

How the results depend on the processing

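No named gene of the list that was called changed sign under any alternative. For the 91 pairs of gene and comparison that were called as reported or belong to Atf4, Ddit3 or Atf3, 1712 alternative values kept their side of the threshold, 148 lost a call and 11 gained one. Of the count of UVB rises without betaine, 14, leaving out an array gave 9 to 15, with 9 without control B and without UVB B. The 4 betaine falls in unirradiated cultures became 9 with median scaling, 18 with array weights and 0 with only the groups compared. Leaving out an array gave 0 to 5: 1 without control A and 0 without control C, betaine A or betaine B. For betaine + UVB against UVB, 0 became 1 with no background correction, 1 with the authors' processed values, 6 with array weights and 2 with only the groups compared, and 0 to 1 when an array was left out (1, Slc7a1, without betaine B or betaine C). The interaction went from 0 to 1 with array weights. The 8 averaged betaine falls became 15 with array weights and 4 to 10 when an array was left out: 4 without control C or betaine + UVB C, and 5 without betaine A, UVB B or betaine + UVB B. The averaged UVB count of 23 stayed between 23 and 29, and that of betaine + UVB against betaine, 22, between 15 and 29. Both counts of 29 came with array weights and held falls: 28 higher and 1 lower in the average, and 27 higher and 2 lower with betaine. In the fits that leave out an array, the remaining 2 arrays of that group share the spread of the others. Array weights also raised the calls over all genes, from 98 to 430 for betaine against control and from 97 to 762 for betaine + UVB against UVB. With median scaling, higher calls made up 16.2% of all calls for betaine against control (40.8% as reported) and 37.3% for averaged UVB (54.1%). The cause of these changes was not tested.

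The culture letters were checked as pairs. Among same-letter pairs of arrays, 8 of 18 had deviations correlated over 0.1 (range -0.38 to 0.34). Among pairs with different letters, 11 of 36 did (range -0.50 to 0.44). 3 of 12 arrays correlated best with their own letter, so the letters were not taken to pair the cultures. Some deviations still ran across groups. Control A correlated at 0.38 with betaine C, 0.35 with UVB C and 0.44 with betaine + UVB C. A batch that the letters do not mark was not tested. With the replicate block, 10 genes rose after UVB without betaine, 21 with betaine and 24 in the average; 4 fell with betaine and 7 in the betaine average, and 0 passed in betaine + UVB against UVB and in the interaction. The block lost the UVB calls of Trib3 (adjusted p = 0.0525), Slc7a1 (0.0648), Iars (0.0746) and Lars (0.0646) without betaine, of Tars (0.075) with it, and the averaged betaine call of Cars (0.0614). Signal limits Adm2, Atf3, Pycr1, Slc7a11 and Stc2, which were not detected on every array.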
